A study of Sus scrofa with 70 samples.

Results

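The genes described here were 9 components of the secretory stress response, selected by name out of 35680 genes in the pig (Sus scrofa) expression table: the stress sensors ERN1 and ATF6, the transcription factors XBP1, CREB3L1, CREB3L4 and BHLHA15, and the endoplasmic reticulum (ER) proteins HSPA5, DNAJB9 and PDIA4. The level of a gene was the sum of its transcripts in TPM, a level per transcript length scaled to the same total in every library. All 9 reached 1 TPM or more in 3 or more libraries and so belonged to the 19911 genes tested. The series profiled boars aged 12 months of 2 related breeds in 5 reproductive glands, namely the testis, the epididymis and the vesicular, prostate and bulbourethral glands, which are accessory sex glands. These were the Banna mini-pig inbred line (BMI) and the Diannan small-ear pig (DSE), the non-inbred stock from which BMI was bred. There were 30 short-read RNA-seq libraries, 3 for each breed and gland, and 10 PacBio Iso-seq libraries of full-length transcripts, 1 for each breed and gland. The labels name no treatment and no transgene. The labels do not say that the 3 replicates of a group came from separate boars, so the p-values measure the spread between these libraries. All of them are bulk tissue, in which a lower level of a message cannot be told apart from fewer cells that carry it.

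Proteins destined for secretion are folded in the ER, and cells that secrete heavily enlarge this compartment. When unfolded proteins accumulate, the kinase and RNase ERN1 (IRE1) cuts a short segment out of the XBP1 message, which shifts the reading frame and yields the active transcription factor, while ATF6 is cut from the membrane and moves to the nucleus. Both factors raise chaperones such as HSPA5, and XBP1 together with BHLHA15 (MIST1) is known for building the secretory apparatus of exocrine and plasma cells.

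The XBP1 segment that ERN1 removes decides how the XBP1 values below can be read, so it is shown with its neighbourhood. It lies on chromosome 14 of Sscrofa11.1, minus strand, within the exon from 46012681 to 46012826, which is 146 bases long. In the first line capitals mark the 26 bases, positions 46012762 to 46012787, taken from the frame gap of the RefSeq annotation, with 30 bases on either side. In the second line the same stretch, chr14:46012732-46012817, has in capitals the shortest gap found in any XBP1 transcript of the authors' annotation, 17 bases from 46012755 to 46012771.
XBP1 segment cut by ERN1: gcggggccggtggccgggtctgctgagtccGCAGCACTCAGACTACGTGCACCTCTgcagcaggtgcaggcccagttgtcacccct
XBP1 shortest annotated gap: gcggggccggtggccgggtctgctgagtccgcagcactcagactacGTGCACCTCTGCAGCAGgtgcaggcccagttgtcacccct
The 17 bases share 10 with the 26 as placed here. The message after the cut reads the same with the segment moved a base downstream, so its ends are not fixed to the base. None of the 9 annotated XBP1 transcripts had a gap of exactly 26 bases, nor one of 20 to 32 bases. The share of XBP1 message in the spliced, active form was therefore not measured, and every XBP1 value below is total message.

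Marker genes were read in every library before any comparison, as sums over fixed lists. The germ cell sum was 23309 to 105114 TPM in the testis and at most 933.9 elsewhere, and the epididymal sum was 3008 to 18137 TPM in the epididymis and at most 200.5 elsewhere. The vesicular gland spermadhesins summed to 162743 to 238489 TPM in the vesicular gland. In the epididymis they summed to 4324 TPM in BMI replicate 1 and to 1.08 to 983 TPM in the other 5 libraries. In the prostate gland they summed to 1.09 to 8.90 TPM in 5 libraries and to 138090 TPM in BMI replicate 2, which also had less of the prostate gland message MSMB (88607 TPM against 102927 to 178304). The BMI prostate gland Iso-seq library held 5951 spermadhesin reads, where the DSE one held 0 and the vesicular gland ones 5734 and 9889. DSE testis replicate 2 had the lowest germ cell sum, 23309 TPM against 67430 to 105114, and the highest Leydig cell sum, 63338 TPM against 18526 to 32256. Smooth muscle, leukocyte, endothelial and urothelial genes were present in the epididymis at up to 18434, 106, 513 and 1425 TPM and were at most 3725, 60.1, 131 and 170 TPM in the other glands. Some of the values below are also given without one of these libraries.

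The glandular epithelium sum (EPCAM, keratins and CDH1) was 14.3 to 41.5 TPM in the testis, 912 to 1703 in the epididymis, 727 to 1298 in the vesicular gland, 1245 to 2337 in the prostate gland and 2363 to 2793 in the bulbourethral gland. It was lowest in the testis and highest in the bulbourethral gland, as XBP1 and CREB3L1 were, and its part in their levels was not tested. Plasma cells also depend on XBP1. Their markers summed to 34.4 to 313 TPM in the bulbourethral gland, led by JCHAIN at 15.2 to 279 TPM, and to at most 50.5 TPM in the other glands. Across the 6 bulbourethral gland libraries the plasma cell sum and XBP1 had Pearson's r = -0.21 (exact permutation p = 0.71) and Spearman's rho = 0.086 (exact p = 0.92), and r = -0.86 without the 2 libraries farthest from the median sum.

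The first question was how the levels differed between the glands. The moderated F test of limma over the 5 gland means, with Benjamini-Hochberg adjustment over all tested genes, called 8 of the 9 genes, against 93.8% of all tested genes, so a gland difference as such was not particular to them. DNAJB9 was the one not called (adjusted p = 0.059). All 9 were called with the replicate number as a block, while outside the 10 highest transcripts DNAJB9 had an adjusted p of 0.61 in this F test. The median span between the highest and the lowest gland mean was 3.36 on the log2(TPM + 1) scale against 1.75 over all tested genes. The spans of DNAJB9 (1.06), ATF6 (1.17) and HSPA5 (1.62) were below that of all tested genes, so a wide span was not shared by the whole set. In the 10 pairs of glands, 56 of the 90 tests passed adjusted p under 0.05 with a log2 difference of at least 1, against 33.1% of the tests of all genes.

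**Figure D1:**
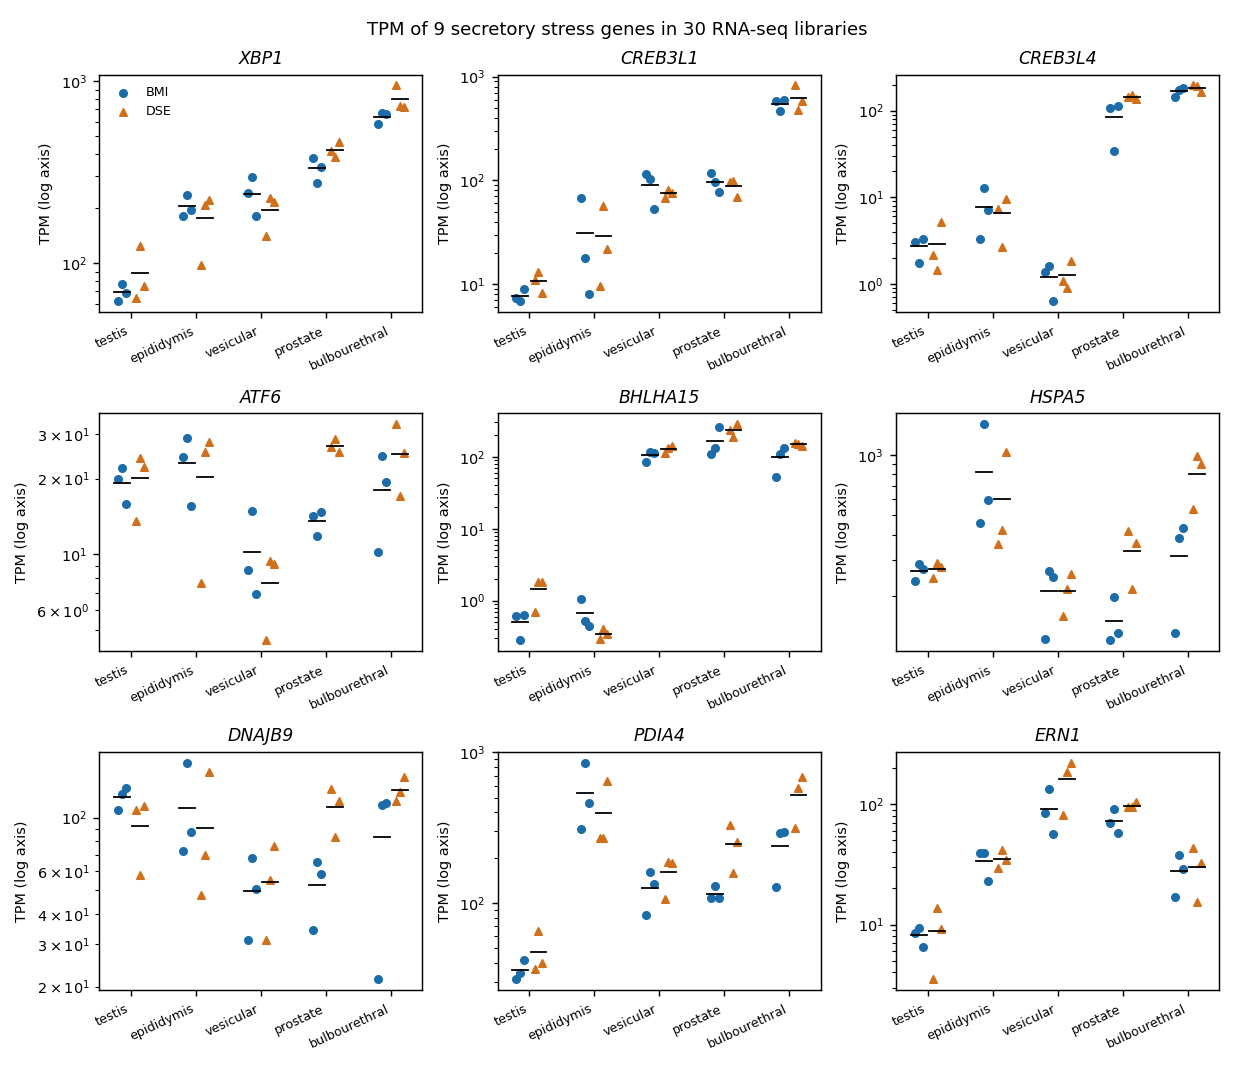
TPM of each gene in 30 RNA-seq libraries by gland, on a log axis. Points are libraries, colours and marker shapes the breeds, and black lines the mean of 3 libraries. BHLHA15 lies between 0.284 and 1.80 TPM in testis and epididymis and between 51.7 and 283 TPM in the other glands, while DNAJB9 and ATF6 overlap across most glands.

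ERN1, the ER-membrane sensor that cuts XBP1 (ENSSSCG00000039909, chromosome 12, 14879179 to 14963287, plus strand), was highest in the vesicular gland. Its lowest, median and highest TPM were 3.54, 8.80 and 13.6 in the testis, 23.1, 36.7 and 41.3 in the epididymis, and 56.6, 109 and 219 in the vesicular gland. They were 58.1, 93.1 and 103 in the prostate gland and 15.3, 30.5 and 42.9 in the bulbourethral gland. All vesicular and prostate gland libraries were above all libraries of the other glands, whereas epididymis and bulbourethral gland overlapped. ERN1 rose by 3.68 ± 0.30 (SE) on the log2 scale from testis to vesicular gland (adjusted p = 5.0e-11). It was lower in the bulbourethral than in the vesicular gland, by -2.02 ± 0.30 (adjusted p = 5.4e-06), and than in the prostate gland, by -1.59 ± 0.30 (adjusted p = 0.00044). The vesicular and prostate glands did not differ beyond their spread as deposited (-0.43, 95% interval -1.05 to 0.19), whereas with the size factors described below the prostate gland was called lower (-1.01, adjusted p = 0.00078). The bulbourethral gland and the epididymis were not distinguished either (-0.31, -0.93 to 0.31).

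ATF6, the sensor that is itself a transcription factor (ENSSSCG00000006346, chromosome 4, 88591280 to 88806196, minus strand), was the flattest of the set after DNAJB9. The lowest, median and highest TPM were 13.6, 21.0 and 24.2 in the testis, 7.67, 24.9 and 29.1 in the epididymis, 4.55, 8.88 and 14.9 in the vesicular gland, 11.9, 20.1 and 28.8 in the prostate gland and 10.2, 22.0 and 32.9 in the bulbourethral gland. The vesicular gland was low, with ranges that still overlapped those of every gland. ATF6 was called lower in the vesicular gland than in testis (-1.10 ± 0.28, adjusted p = 0.0011) and epididymis (-1.15 ± 0.28, adjusted p = 0.0011), and higher in the prostate (1.09 ± 0.28, adjusted p = 0.0038) and bulbourethral gland (1.17 ± 0.28, adjusted p = 0.0011) than in the vesicular gland. None of these 4 reached a call on the rescalings described below, where the difference from the prostate gland fell short in size only. Without DSE vesicular gland replicate 1 the differences from testis, epididymis and prostate gland came to -0.95, -0.998 and 0.95, short of the size for a call, as did those from testis (-0.995) and prostate gland (0.99) without BMI replicate 3 and that from the epididymis (-0.99) without DSE epididymis replicate 3. As deposited the means of the other 4 glands lay close together, with the bulbourethral gland 0.08 above the prostate gland on the log2 scale, whereas outside the 10 highest transcripts the prostate gland was 0.74 above the testis (adjusted p = 0.012) and 0.72 above the epididymis (adjusted p = 0.030).

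Beside these sensors, a list of 8 other sensors and CREB3 family members was read, of which 7 were in the table and tested. All 7 differed between glands (93.8% of all genes), and 5 were highest in the bulbourethral gland (17.04% of all genes). Outside the 10 highest transcripts 4 were highest there (16.9% of all genes) and 2 in the prostate gland (18.4%). With size factors 5 were highest in the bulbourethral gland (14.9%). ERN2 (IRE1 beta), the sensor paralogue known from mucus-secreting epithelia, stood at 124 ± 28.3 TPM (SD, n = 6) in the bulbourethral gland, at 10.96 ± 17.2 in the prostate gland and at 1.11 or less in the other 3. EIF2AK3 (PERK) stood at 44.4 ± 10.4 TPM in the bulbourethral gland and 3.71 ± 1.18 in the testis. ERN2 was thus high in the bulbourethral gland, where the median of ERN1 was 30.5 TPM, and at 0.437 ± 0.611 TPM in the vesicular gland, where the median of ERN1 was 109 TPM.

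XBP1 (ENSSSCG00000030996, chromosome 14, 46008375 to 46016554, minus strand) stood in a graded order of glands as deposited, with the testis lowest, followed by epididymis, vesicular gland and prostate, and the bulbourethral gland highest. The lowest, median and highest TPM were 61.8, 71.6 and 125 in the testis, 97.8, 203 and 237 in the epididymis, 142, 221 and 298 in the vesicular gland, 277, 381 and 462 in the prostate gland and 580, 694 and 949 in the bulbourethral gland. Every bulbourethral gland library was above every library of the other glands. The bulbourethral gland exceeded the testis by 3.20 ± 0.20 on the log2 scale, which is 9.20-fold (adjusted p = 2.3e-13), and the vesicular gland by 1.74 ± 0.20 (adjusted p = 1.3e-07). Its difference from the prostate gland was 0.93 ± 0.20 (adjusted p = 0.0013), below the size required for a call. The vesicular gland and the epididymis were not distinguished (0.21, 95% interval -0.20 to 0.61). The steps of this order depended on the scale: on the rescalings described below the vesicular gland stood 1.29 and 1.30 above the epididymis, and the excess of the prostate over the vesicular gland went from 0.80 to 0.52 (adjusted p = 0.034) and 0.22 (adjusted p = 0.35). DSE testis replicate 2 gave the testis maximum. Without it the testis mean went from 78.5 ± 23.4 TPM to 69.3 ± 6.57 (SD, n = 5).

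CREB3L1 (OASIS), a membrane-bound factor known for driving secretory pathway genes (ENSSSCG00000013263, chromosome 2, 16186206 to 16220943, minus strand), had its high level in the bulbourethral gland. The lowest, median and highest TPM were 6.84, 8.65 and 13.1 in the testis, 8.11, 19.8 and 66.9 in the epididymis, 52.6, 78.2 and 115 in the vesicular gland, 68.5, 96.2 and 117.6 in the prostate gland and 463, 579 and 823 in the bulbourethral gland. The bulbourethral gland libraries lay above all others, and the vesicular and prostate glands covered the same range. The bulbourethral gland exceeded the prostate gland by 2.65 ± 0.37, or 6.27-fold (adjusted p = 9.8e-06), and the vesicular gland by 2.83 ± 0.37 (adjusted p = 7.9e-07). Vesicular and prostate gland were not distinguished (0.18, 95% interval -0.57 to 0.94).

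CREB3L4 (AIbZIP), a relative of CREB3L1 known from prostate epithelium (ENSSSCG00000006560, chromosome 4, 95716531 to 95723164, minus strand), marked the prostate and bulbourethral glands. Its TPM was 34.6, 125 and 152 (lowest, median, highest) in the prostate gland and 145, 179 and 196 in the bulbourethral gland, against 1.45 to 5.13 in the testis, 2.64 to 12.8 in the epididymis and 0.632 to 1.86 in the vesicular gland. No library of the first 2 glands overlapped with any of the other 3. The prostate gland exceeded the vesicular gland by 5.57 ± 0.31 on the log2 scale, 47.6-fold (adjusted p = 1.6e-12), and the bulbourethral gland exceeded it by 6.32 ± 0.31, 79.8-fold (adjusted p = 5.5e-14). The lowest prostate gland value belonged to BMI replicate 2, the library with spermadhesin messages. Without it the prostate gland mean went from 114 ± 42.9 TPM to 130 ± 19.8 (SD, n = 5), and no prostate gland call of any of the 9 genes changed.

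BHLHA15 (MIST1), a factor known for maintaining secretory granules in exocrine cells (ENSSSCG00000038489, chromosome 3, 5410502 to 5414075, plus strand), separated the 3 accessory glands from testis and epididymis. The lowest, median and highest TPM were 0.284, 0.666 and 1.80 in the testis, 0.296, 0.421 and 1.05 in the epididymis, 85.7, 115 and 140 in the vesicular gland, 109, 210 and 283 in the prostate gland and 51.7, 135 and 158 in the bulbourethral gland. The accessory glands overlapped one another and were far from the other glands. The prostate gland exceeded the epididymis by 6.999 ± 0.21, 128-fold on the log2(TPM + 1) scale (adjusted p = 7.6e-18), the widest span of the 9. The vesicular and bulbourethral glands were not distinguished as deposited (0.02, 95% interval -0.43 to 0.46), but the bulbourethral gland was lower on both rescalings described below, by -0.66 (adjusted p = 0.015) and -0.84 (adjusted p = 0.0012), short of the size for a call.

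Of the ER proteins, HSPA5 and PDIA4 had high levels in epididymis and bulbourethral gland, and DNAJB9 varied less between glands. The higher mean of these 2 glands was not in the same gland in both breeds, a difference that no test called: in BMI the epididymis had the higher mean (823 against 316 TPM for HSPA5, 539.7 against 238 for PDIA4), and in DSE the bulbourethral gland (807 against 605 and 525 against 395). Over both breeds the bulbourethral gland differed from the epididymis by -0.42 for HSPA5 (95% interval -1.09 to 0.24) and by -0.34 for PDIA4 (-0.95 to 0.27), and outside the 10 highest transcripts by -0.02 and 0.06. HSPA5 (BiP, the main ER chaperone of the Hsp70 type; ENSSSCG00000005601, chromosome 1, 265930043 to 265947995, minus strand) stood at 236, 275 and 291 TPM (lowest, median, highest) in the testis, 360, 526 and 1417 in the epididymis, 122, 232 and 265 in the vesicular gland, 121, 206 and 417 in the prostate gland and 131, 486 and 985 in the bulbourethral gland. The epididymis lay above testis and vesicular gland in every library, and the prostate and bulbourethral glands spread over a wide range. It was called higher in the epididymis than in the testis (1.23 ± 0.32, adjusted p = 0.0016) and lower in the vesicular gland than in the epididymis (-1.62 ± 0.32, adjusted p = 0.00015). The first of these came to 0.98 without BMI epididymis replicate 2 and to 0.99 without DSE epididymis replicate 3, both just short of a call. In the bulbourethral gland it was called higher than in the vesicular gland (1.20 ± 0.32, adjusted p = 0.0033).

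PDIA4, a disulfide isomerase of the ER (ERp72; ENSSSCG00000015453, chromosome 9, 109252011 to 109280248, plus strand), had 31.3, 38.3 and 65.2 TPM (lowest, median, highest) in the testis, 268, 385 and 849 in the epididymis, 82.9, 148 and 188 in the vesicular gland, 107.1, 144 and 327 in the prostate gland and 127, 305 and 682 in the bulbourethral gland. The testis libraries were below all others and the epididymis libraries above all of the vesicular gland. The epididymis exceeded the testis by 3.36 ± 0.30, 10.2-fold (adjusted p = 3.2e-10), the largest difference among the 3 ER proteins.

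DNAJB9 (ERdj4, a co-chaperone of HSPA5; ENSSSCG00000016653, chromosome 18, 36131706 to 36584432, minus strand) had 58.1, 110 and 132 TPM in the testis, 47.9, 80.3 and 168 in the epididymis, 31.1, 52.9 and 76.6 in the vesicular gland, 34.3, 74.5 and 132 in the prostate gland and 21.5, 116 and 147 in the bulbourethral gland. All 5 glands overlapped in at least 1 library with another gland, and the single call was a lower level in the vesicular gland than in the testis (-1.06 ± 0.36, adjusted p = 0.011). It came to between -0.99 and -0.89 without DSE testis replicate 1 or 3, BMI vesicular gland replicate 1 or DSE vesicular gland replicate 1, and was then not called. The 10 highest transcripts of BMI bulbourethral gland replicate 1 held 42.5% of its TPM, the most in its gland. This library gave the lowest value of DNAJB9 (21.5 TPM), and in its gland also of HSPA5 (131 TPM), PDIA4 (127 TPM), BHLHA15 (51.7 TPM), XBP1 (580 TPM), CREB3L4 (145 TPM) and ATF6 (10.2 TPM), but not of CREB3L1 or ERN1. Without it the bulbourethral gland means went from 106.9 ± 43.6 to 124 ± 13.99 TPM for DNAJB9 and from 561 ± 324 to 648 ± 275 TPM for HSPA5, and DNAJB9 was then called higher in the bulbourethral than in the vesicular gland (1.29, adjusted p = 0.0011).

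Set side by side by gland pair, 6 of the 9 genes were higher in the epididymis than in the testis and 0 lower, where 21.6% of all tested genes were called higher and 29.3% lower. The count was the same for the prostate gland against the testis (all genes 12.3% and 36.5%) and for the bulbourethral gland against the testis (15.8% and 33.2%). The vesicular gland exceeded the testis for 5 genes and was below it for ATF6 and DNAJB9 (8.03% and 44.8%). Between vesicular gland and epididymis the set divided as deposited. BHLHA15, CREB3L1 and ERN1 were higher and CREB3L4, ATF6, HSPA5 and PDIA4 lower in the vesicular gland (1.92% and 34.5%). On both rescalings described below CREB3L4 alone was called lower there, and XBP1 was called higher as well. In the prostate gland 5 genes were above and HSPA5 and PDIA4 below the epididymis as deposited (3.66% and 17.6%). The bulbourethral gland exceeded the epididymis for the 4 transcription factors and was below it for 0 genes (6.32% and 15%). Among the accessory glands, the prostate gland exceeded the vesicular gland for CREB3L4 and ATF6, with 0 lower (11.3% and 3.42%). The bulbourethral gland exceeded the vesicular gland for 6 genes and was below it for ERN1 (23.6% and 4.12%), and exceeded the prostate gland for CREB3L1, HSPA5 and PDIA4, with ERN1 again lower (5.64% and 2.01%).

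TPM is a share of a fixed total, so what a few transcripts take is lost to all others. The 10 highest transcripts held 12.7 to 19.9% of the TPM in the testis, 9.24 to 22.0% in the epididymis, 47.3 to 64.7% in the vesicular gland, 41.4 to 56.2% in the prostate gland and 26.4 to 42.5% in the bulbourethral gland. None of the 9 genes contributed to them in any library. The median log2 difference of all tested genes between vesicular gland and testis was -0.81 as deposited, -0.05 when TPM was recomputed outside each library's 10 highest transcripts and -0.20 with median-of-ratios size factors. Differences of the vesicular and prostate glands from testis or epididymis therefore depend on the scale in size.

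On the scale outside the 10 highest transcripts 46 of 90 pair tests passed (30.0% over all genes), and with size factors 44 (28.0%). The contrasts of CREB3L1, CREB3L4, BHLHA15 and ERN1 named above with a call as deposited passed on both, some with another size. ERN1 in the vesicular gland against the testis went from 3.68 to 4.76 and 4.55, and BHLHA15 in the prostate gland against the epididymis from 6.999 to 7.94 and 7.25. For ATF6 none of the 4 vesicular gland calls was kept on either scale, although the excess of the prostate over the vesicular gland, 0.87 (adjusted p = 0.012) and 0.57 (adjusted p = 0.018), fell short only in size. The lower level in the vesicular gland was lost on both scales for DNAJB9 against the testis, and for HSPA5 and PDIA4 against epididymis and bulbourethral gland. Calls between the other glands were lost too. The excess of the bulbourethral over the prostate gland came to 0.71 (adjusted p = 0.12) and 0.82 (adjusted p = 0.064) for HSPA5 and to 0.62 (adjusted p = 0.15) and 0.73 (adjusted p = 0.071) for PDIA4. The lower level in the prostate gland than in the epididymis was lost on both scales for PDIA4, at -0.56 and -0.84, and outside the top 10 for HSPA5 (-0.74, adjusted p = 0.061). CREB3L4 in the epididymis against the testis fell short with size factors (0.84). Outside the top 10 the bulbourethral gland was called above the testis for HSPA5 (1.18, adjusted p = 0.0014) and below the prostate gland for BHLHA15 (-1.095, adjusted p = 0.00057). For HSPA5 the difference between vesicular gland and epididymis went from -1.62 to -0.54 (adjusted p = 0.19) and -0.53 (adjusted p = 0.19). In turn, XBP1 was called higher in the vesicular gland than in the epididymis on both scales (1.29, adjusted p = 6.6e-06, and 1.30, adjusted p = 4.4e-07), and the excess of the bulbourethral over the vesicular gland fell to 0.87 with size factors (adjusted p = 6.9e-05). Recomputed outside the top 10, XBP1 averaged 93.7 ± 31.3 TPM in the testis, 221 ± 53.8 in the epididymis, 530 ± 76.2 in the vesicular gland, 755 ± 77.3 in the prostate gland and 1103 ± 182 in the bulbourethral gland (SD, n = 6).

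**Figure D2:**
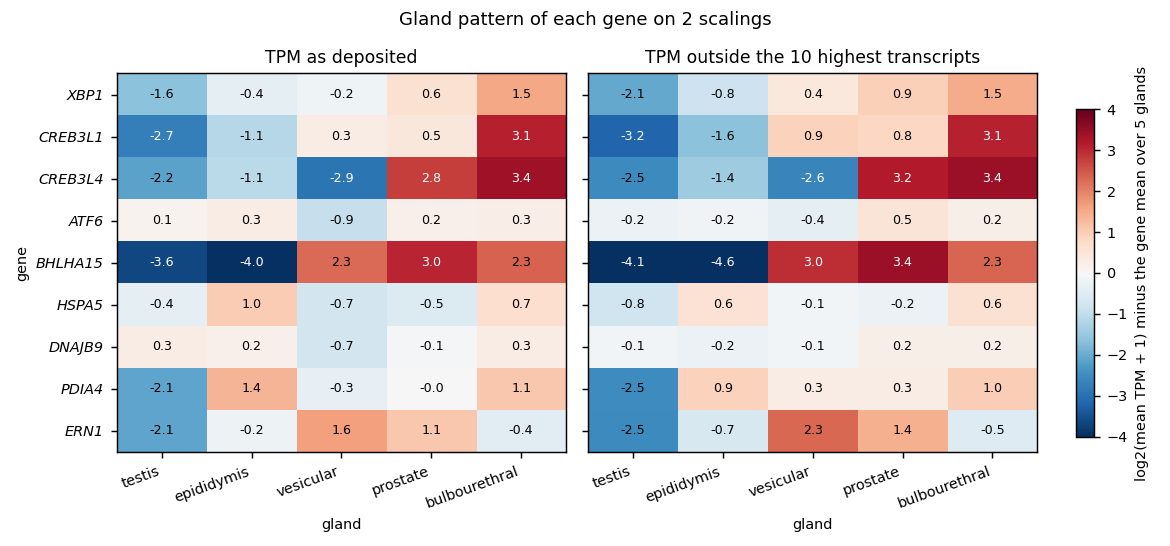
Mean level of each gene by gland, as log2(mean TPM + 1) minus the gene's mean over 5 glands, as deposited and outside the 10 highest transcripts of each library. BHLHA15, CREB3L1 and CREB3L4 have the same high and low glands in both panels, while the low vesicular gland values of ATF6, HSPA5, DNAJB9 and PDIA4 in the first panel are closer to the other glands in the second.

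The second question was whether inbred BMI and non-inbred DSE boars differed. The log2 difference, DSE minus BMI within a gland, passed in 0 of 45 tests of the 9 genes with limma (1.38% of the tests of all genes) and likewise in 0 with its mean-dependent variance. With size factors ERN1 in the vesicular gland passed, at 1.31 (adjusted p = 0.031), where it was 0.78 as deposited (adjusted p = 0.45). At an unadjusted p under 0.05 there were 9, all higher in DSE (4.63% of the tests of all genes), of which 5 were in the prostate gland (12.1%) and 3 in the bulbourethral gland (1.91%). Over the mean of the 5 glands 0 of 9 were called (3.3% of all genes), with 3 higher in DSE at an unadjusted p under 0.05 (5.69%), and for the difference of the breed effect between glands 0 of 9 (2.59%), with 1 unadjusted (14.5%).

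HSPA5 gave the largest breed difference. In the bulbourethral gland its TPM was 131, 385 and 433 in the BMI libraries and 539, 985 and 897 in the DSE libraries, which did not overlap. The log2 difference was 1.48 ± 0.46 (unadjusted p = 0.0035, adjusted p = 0.35), and 0.93 without BMI bulbourethral gland replicate 1. In the prostate gland the values were 121, 197 and 131 in BMI and 417, 215 and 366 in DSE, a difference of 1.13 ± 0.46 (adjusted p = 0.29). PDIA4 had 127, 294 and 295 TPM in BMI and 315, 577 and 682 in DSE bulbourethral gland (1.16 ± 0.42, adjusted p = 0.65).

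All 3 DSE libraries were above all 3 BMI libraries in the prostate gland for 7 of the 9 genes, where this held for 29.5% of all tested genes. It held in the bulbourethral gland for 5 (BHLHA15, DNAJB9, HSPA5, PDIA4 and XBP1, all genes 4.57%), in the testis for BHLHA15 (7.59%), and for 0 in the epididymis (2.85%) and the vesicular gland (1.75%). The median of all tested genes was itself 0.23 higher in DSE prostate gland on the log2 scale. The sum of 6 smooth muscle markers there was 142, 278 and 1730 TPM (lowest, median, highest) in BMI and 1341, 2290 and 2988 in DSE, and that of 4 leukocyte markers 10.9, 13.3 and 26.5 in BMI and 19.3, 22.5 and 30.5 in DSE, with no marker at 0. Their part in the breed differences was not tested. ATF6 in the prostate gland had 14.2, 11.9 and 14.7 TPM in BMI and 26.8, 28.8 and 25.5 in DSE (0.94 ± 0.39, adjusted p = 0.31). Its difference was 0.72 outside the 10 highest transcripts and 0.51 with size factors. The share of the 10 highest transcripts was also separate in that gland, 53.4 to 56.2% in BMI and 41.4 to 50.5% in DSE, and in the testis, 12.7 to 14.5% and 15.7 to 19.9%, so there breed and share cannot be told apart. BHLHA15 over the 5 glands was 0.39 ± 0.14 higher in DSE (unadjusted p = 0.0088, adjusted p = 0.13).

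Among the genes of the wider lists 3 of 435 within-gland breed tests passed, or 0.69%, and 4 of 87 genes, or 4.598%, over the mean of the glands, near or below the shares of all tests given above. ERN2 in the prostate gland was 45.1, 6.95 and 10.9 TPM in BMI and 0.794, 1.33 and 0.671 in DSE, a log2 difference of -3.10 ± 0.41 (adjusted p = 0.00011, and 1.7e-05 without BMI replicate 2). CHAC1, an enzyme that degrades glutathione and a target of ATF4, had 3.24, 1.49 and 1.35 TPM in BMI and 6.47, 16.8 and 38.1 in DSE testis (2.57 ± 0.64, adjusted p = 0.012, and 0.048 without DSE replicate 2). ASNS, asparagine synthetase, was higher in DSE prostate gland by 2.11 ± 0.43 (adjusted p = 0.017), a call lost without BMI replicate 2 (adjusted p = 0.097) and with size factors (adjusted p = 0.094). Over the mean of the glands ERN2 was lower in DSE (-0.85, adjusted p = 0.0086), while CHAC1 (1.13, adjusted p = 0.025), the signal peptidase subunit SEC11C (0.63, adjusted p = 0.018) and the translocon subunit SEC61G (0.50, adjusted p = 0.027, and 0.098 with size factors) were higher.

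The third question was how the genes followed the share of TPM on the 10 highest transcripts, with the gland as the other term of the fit. All 9 slopes were negative, and 5 passed (XBP1, ATF6, HSPA5, DNAJB9 and PDIA4), against 45.4% of all tested genes with a called negative slope. For each 10 percentage points of share DNAJB9 fell by 0.81 ± 0.21 on the log2 scale (adjusted p = 0.0027), ATF6 fell by 0.74 ± 0.14 (adjusted p = 0.00022), HSPA5 fell by 0.69 ± 0.22 (adjusted p = 0.013), PDIA4 fell by 0.55 ± 0.21 (adjusted p = 0.036) and XBP1 fell by 0.30 ± 0.12 (adjusted p = 0.043). Leaving out 1 library at a time moved the count of 5 to between 2 and 7, with 2 without BMI bulbourethral gland replicate 1. The values for the 4 not called were -0.48 for CREB3L1, -0.38 for ERN1, -0.27 for BHLHA15 and -0.22 for CREB3L4. XBP1 lost its call in 13 of 30 such fits, among them those without BMI prostate gland replicate 2 (adjusted p = 0.076) and BMI bulbourethral gland replicate 1 (adjusted p = 0.0696), and PDIA4 lost it in 7. With breed and gland group as the other term, XBP1 (adjusted p = 0.13), HSPA5 (0.094) and PDIA4 (adjusted p = 0.10) were not called, while CREB3L1 (-0.75, adjusted p = 0.025) and ERN1 (-0.57, adjusted p = 0.038) were, with ATF6 and DNAJB9 called in both fits. The median over all tested genes was -0.31, the size of the XBP1 slope. As deposited, the TPM left for all transcripts other than the 10 highest falls by construction as the share rises. The steepest of the 9 was DNAJB9, and 6.58% of all tested genes were steeper.

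Computed outside the 10 highest transcripts, ATF6 alone was called, with -0.52 ± 0.15 (adjusted p = 0.016, 17.8% of all genes called, median -0.16), and DNAJB9 had -0.57 ± 0.21 (adjusted p = 0.063). With size factors 0 of 9 passed (9.74% of all genes), and the ATF6 slope was -0.28 (95% interval -0.53 to -0.04, adjusted p = 0.13). After removing each gland mean, ATF6 as deposited and the share had r = -0.73 over 30 libraries (permutation within glands p = 0.00011, adjusted over 9 relations p = 0.00099) and rho = -0.46 (p = 0.020, adjusted p = 0.12), with r = -0.69 without the 2 libraries farthest from the median share. Outside the 10 highest transcripts it had r = -0.59 (adjusted p = 0.016) and rho = -0.38 (adjusted p = 0.495) by the same permutation. Within single glands of 6 libraries 35 of 45 relations were negative as deposited and 27 outside the top 10, but without the 2 libraries farthest from the median share of the gland 24 and 18 were. HSPA5, DNAJB9 and PDIA4 then had a positive r in epididymis and bulbourethral gland, from 0.73 to 0.87, so their negative signs there rested on those libraries. In the testis 2 of 9 were negative as deposited and 5 without its 2 farthest libraries. By exact permutation 8 relations had an unadjusted p under 0.05 and 0 passed adjustment over the 45 (smallest adjusted p = 0.16). The 720 orders of 6 libraries allow no p below 0.0028, at which a single relation would not pass this adjustment, so the 0 says little. The smallest p belonged to ERN1 in the epididymis, with r = -0.96 (exact p = 0.0042), rho = -0.94 (exact p = 0.017) and r = -0.86 without the 2 farthest libraries. In the prostate gland PDIA4 had r = -0.96 (exact p = 0.0069) and r = -0.59 without the 2 farthest, and all 9 genes had a negative r without them.

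**Figure D3:**
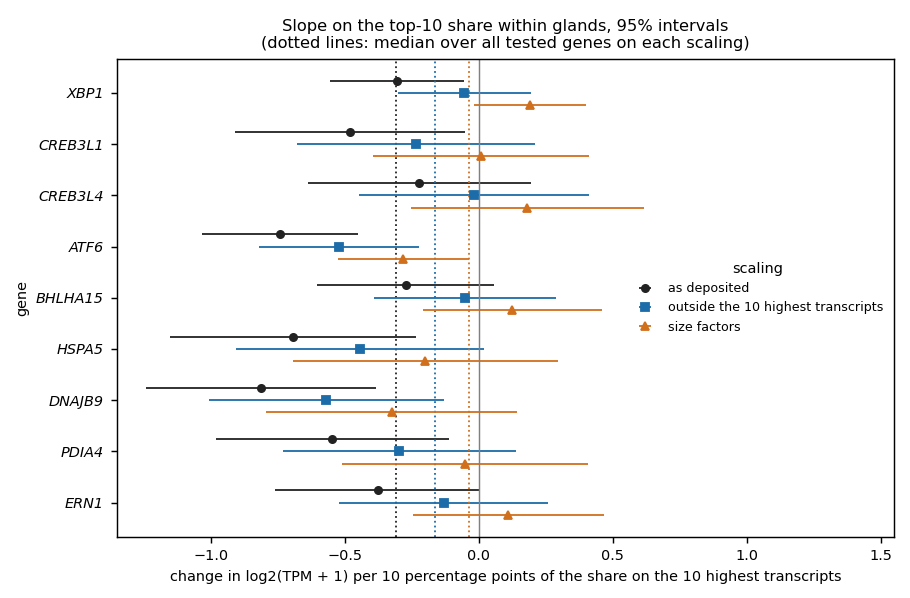
Slope of log2(TPM + 1) on the share held by the 10 highest transcripts, per 10 percentage points, with 95% intervals, for each gene on 3 scales. Dotted lines are the medians over all tested genes. All 9 slopes are below 0 as deposited, and with size factors 5 of them (XBP1, CREB3L1, CREB3L4, BHLHA15 and ERN1) are above 0 with intervals that include 0.

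Within glands HSPA5 and PDIA4 were the most closely related pair of the 9. Over the 30 libraries, each as a difference from its gland mean, HSPA5 and PDIA4 had r = 0.95 and rho = 0.82 (permutation within glands p = 1e-05 for each, the smallest that the permutations can give, adjusted over 36 relations p = 9e-05 and 0.00029), positive in 5 of 5 glands, and r = 0.93 without the 2 farthest libraries. Of all tested genes, 0% had a higher r with HSPA5 in this measure. HSPA5 and DNAJB9 had r = 0.89 and DNAJB9 and PDIA4 r = 0.78, both positive in 4 of 5 glands, with r = -0.28 and -0.82 in the gland with the lowest value. XBP1 and ATF6 had r = 0.82, positive in 5 of 5 glands. Outside the 10 highest transcripts the highest r of the set was 0.93. Of the 36 pairs of the 9 genes, 32 were positive as deposited and 31 outside the top 10, with a median r of 0.39 and 0.30. All tested genes leaned the same way, with a median r of 0.34 to ATF6, 0.24 to XBP1 and 0.14 to HSPA5 as deposited. The points share library and composition, and the libraries that were low for several genes at once, such as BMI bulbourethral gland replicate 1, enter all of these pairs. CREB3L1 had r from -0.12 to -0.16 to the 3 ER proteins and -0.38 to CREB3L4, and 0.40 to ATF6, 0.38 to XBP1 and 0.29 to ERN1.

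**Figure D4:**
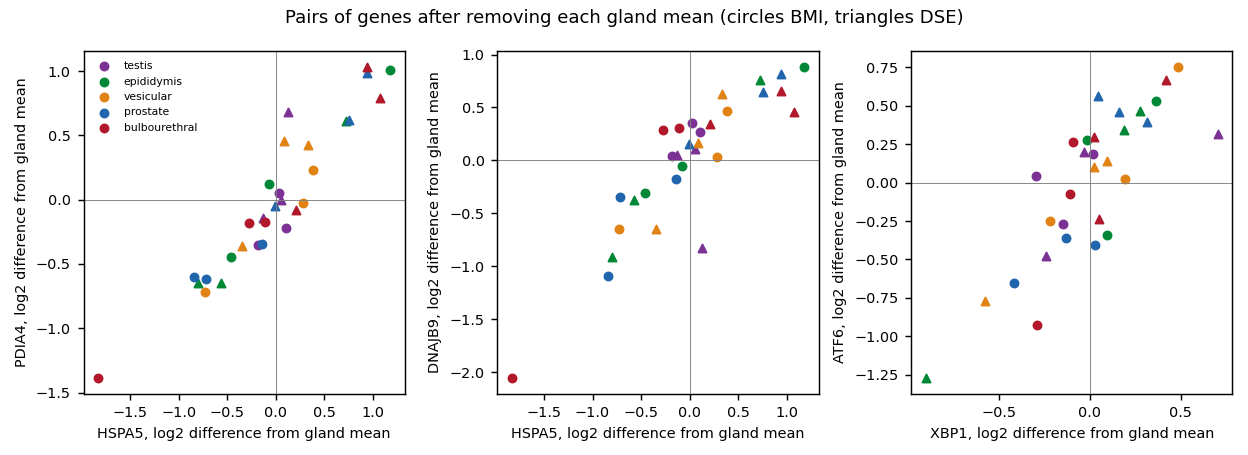
Differences of log2(TPM + 1) from the gland mean for pairs of genes in 30 libraries, coloured by gland, with circles for BMI and triangles for DSE. HSPA5 and PDIA4 rise together in all 5 glands (r = 0.95 over 30 libraries, 0.64 in the gland with the lowest value).

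The wider secretory pathway was read through lists of genes with known roles. Of 18 ER chaperones and folding factors all 18 differed between glands (93.8% of all genes), 13 of them highest in the epididymis, and 9 and 11 on the rescalings. Over all tested genes the epididymis was highest for 30.2% as deposited, 15.2% outside the 10 highest transcripts and 17.1% with size factors, the testis for 43.5, 36.9 and 43.04%, and the bulbourethral gland for 17.04, 16.9 and 14.9%. In the vesicular gland against the epididymis 17 of 18 were called lower (34.5% of all genes), but 3 lower and 1 higher on either rescaling. DNAJC10, an ER disulfide reductase, was an exception with 314 ± 71.0 TPM in the bulbourethral gland and 14.5 ± 4.88 in the vesicular gland, and ERO1B, an ER oxidase, had 129 ± 40.3 TPM in the testis and 5.34 ± 2.10 in the vesicular gland.

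Genes that carry proteins out of the ER were read next, with the bulbourethral gland highest for 17.04% of all tested genes. Of 15 COPII coat and retrieval genes 14 differed between glands and 12 were highest in the bulbourethral gland (8 on either rescaling), with the KDEL receptor KDELR3 at 193 ± 10.03 TPM there and 4.601 ± 1.72 in the testis. The coat subunit SEC23A was instead highest in the testis, 31.1 ± 10.2 TPM. Of the 13 genes of ER-associated degradation 12 differed and 8 were highest in the bulbourethral gland (8 and 7 on the rescalings). Among them the mannosidase-like EDEM3 had 79.8 ± 35.4 TPM in the bulbourethral gland and 9.36 ± 2.73 in the testis, and the ubiquitin-conjugating enzyme UBE2J1 had 291 ± 106.6 TPM in the testis and at most 32.9 in the means of the other glands. Of 18 translocation and signal peptide genes all 18 differed, with 7 highest in the epididymis, 6 in the bulbourethral gland and 5 in the testis as deposited. This order did not hold on the other scales. Outside the 10 highest transcripts 11 were highest in the bulbourethral gland, 4 in the vesicular gland, 2 in testis and 0 in epididymis. With size factors 7 were highest in the vesicular gland, 6 in the bulbourethral gland, 4 in testis and 1 in epididymis. Over all tested genes the vesicular gland was highest for 3.61% as deposited, 12.55% outside the 10 highest transcripts and 15.05% with size factors. SRPRA, a subunit of the signal recognition particle receptor, had 527 ± 97.5 TPM in the bulbourethral gland, and SEC11C 370 ± 110 TPM in the epididymis.

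Of 10 genes of the PERK and ATF4 branch 9 differed between glands. As deposited 4 of the 10 were highest in the testis (43.5% of all genes) and 2 each in the epididymis (30.2%), the prostate gland (5.61%) and the bulbourethral gland (17.04%). Outside the 10 highest transcripts 4 were highest in the prostate gland (18.4% of all genes), 3 in the bulbourethral gland, 2 in the vesicular gland, 1 in the testis and 0 in the epididymis. With size factors 3 each were highest in the testis and the prostate gland (9.94% of all genes), 2 each in the vesicular and bulbourethral glands and 0 in the epididymis. The serine synthesis enzyme PSAT1 had 131 ± 80.1 TPM in the testis and 14.9 ± 8.95 in the bulbourethral gland, and ASNS 30.9 ± 23.7 TPM in the prostate gland and 3.19 ± 0.57 in the vesicular gland. A list held 6 exocytosis genes known as targets of BHLHA15. All 6 differed, and as deposited 3 were highest in the testis, against 43.5% of all tested genes, and 0 in the vesicular or prostate gland. RAB26, a vesicle GTPase, had 51.9 ± 19.3 TPM in the testis and at most 2.97 in the means of the other glands, and the coat subunit COPZ2 had 199 ± 56.9 TPM in the bulbourethral gland. On both rescalings 3 were highest in the testis and 1 in the prostate gland.

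Genes with the pattern closest to each of the 9, by Pearson's r of log2(TPM + 1) over the 30 libraries, were TPD52 (0.97), AGR2 (0.97) and DENND2D (0.97) for XBP1, and EIF4EBP3 (0.95), PYCR1 (0.93) and ALDH18A1 (0.92) for CREB3L1. For CREB3L4 they included SLC5A8 (0.96) and FOXA2 (0.96), and for BHLHA15 AQP5 (0.98), KCNN4 (0.95) and PPP1R3B (0.92). HSPA5 was closest to HSP90B1 (0.95), PDIA3 (0.94) and CALR (0.93), and DNAJB9 to SEC23B (0.89), HYOU1 (0.88) and TRAM1 (0.88). PDIA4 was closest to ENOSF1 (0.95), CDK2AP2 (0.94) and SEC61B (0.93), ATF6 to LRPPRC (0.94), RAB5A (0.93) and ZNF24 (0.93), and ERN1 to genes that included TRIM27 (0.94) and TENT5A (0.92). These are descriptions over libraries that share glands and composition.

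Known response elements were looked for in the 250 bases before each RefSeq gene start, on both strands: the ER stress element ERSE (CCAAT, any 9 bases, CCACG), ERSE-II (ATTGG, any 1 base, CCACG) and the core of the unfolded protein response element (TGACGTGG). ERSE and ERSE-II end in the same letters. XBP1 held 1 ERSE, which began 82 bases before the start and is in capitals below, on chr14:46016527-46016776, minus strand, Sscrofa11.1.
XBP1 promoter: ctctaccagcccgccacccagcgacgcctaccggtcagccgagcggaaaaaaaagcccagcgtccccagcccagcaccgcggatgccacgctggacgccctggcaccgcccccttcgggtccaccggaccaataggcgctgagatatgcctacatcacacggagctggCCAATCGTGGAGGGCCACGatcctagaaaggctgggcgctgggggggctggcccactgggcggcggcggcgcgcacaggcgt
Of 19534 protein-coding promoters of this length 0.0717% held an ERSE, 0.0870% an ERSE-II and 0.543% the TGACGTGG core. The other members of the set held none of the 3 in exact form, which says only that these letters are not in these windows.

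Iso-seq counted full-length reads in 1 library per breed and gland, so it has no replicates and no test. Intervals are exact 95% binomial ones and cover counting error only. XBP1 was again highest in the bulbourethral gland of both breeds, with 19.8 reads per 10000 (95% interval 18.4 to 21.2) in BMI and 29.4 (27.3 to 31.5) in DSE, and lowest in the testis, with 1.67 (1.32 to 2.09) and 1.68 (1.33 to 2.10). CREB3L1 had 38 and 20 reads in the bulbourethral gland and 0 to 9 elsewhere, and CREB3L4 had 76 and 35 there. PDIA4 was lowest in the testis, at 1.16 per 10000 in both breeds, and between 9.70 and 13.9 in the other 8 libraries. The glands of the other members did not follow the RNA-seq order in both breeds. HSPA5 ranged from 13.4 to 42.3 per 10000, with the bulbourethral gland (33.7) and the epididymis (33.6) level at the top in BMI and the prostate gland highest in DSE. DNAJB9 was highest in the bulbourethral gland in BMI (11.9) and the prostate gland in DSE (16.9), and PDIA4 in the epididymis in BMI (11.7) and the prostate gland in DSE (13.9). ATF6 was highest in the testis in BMI (1.01) and the bulbourethral gland in DSE (0.829). BHLHA15 had 0 to 4 reads in any library, too few to order the glands.

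The 2 prostate gland Iso-seq libraries differed beyond counting error for several members. CREB3L4 had 43 reads in DSE (1.28 per 10000, 0.926 to 1.72) and 0 of 263309 in BMI, which allows up to 0.114 per 10000, and ERN1 had 142 reads in BMI (5.39, 4.54 to 6.36) and 9 in DSE (0.268, 0.122 to 0.508). DNAJB9 had 125 reads in BMI (4.75, 3.95 to 5.66) and 568 in DSE (16.9, 15.5 to 18.4), and HSPA5 had 626 (23.8, 22.0 to 25.7) and 1423 (42.3, 40.2 to 44.6). For PDIA4 the intervals lay closer, 9.75 to 12.3 in BMI and 12.6 to 15.2 in DSE. The BMI library is the one with 5951 spermadhesin reads, and it had 11 reads of MSMB against 123 in DSE. The part of the spermadhesin messages in these differences was not tested. For ERN1 the vesicular gland libraries had 0.851 (BMI) and 1.54 (DSE) reads per 10000, both below the BMI prostate gland. In DSE the prostate gland was below the bulbourethral gland (0.565) and near the epididymis (0.259) for ERN1, which was not its order in RNA-seq.

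Short and full-length reads placed XBP1 on different transcripts. Of the XBP1 TPM a mean of 74.5% (69.4 to 80.4% over 30 libraries) was assigned to ENSSSCT00000043460, a transcript of 1577 bases that lacks 69 of the 146 bases of the exon shown above, all 26 of the segment included, and 19.5% to PB.6095.2, which holds all 26 and has 4648 bases. Of 3063 full-length XBP1 reads 95.5% were PB.6095.2 and 0.163% matched ENSSSCT00000043460. The transcript with the 17-base gap, ENSSSCT00000047245, had 3.09% of the TPM and 0 full-length reads. Because TPM divides by transcript length, the total for XBP1 depends on this assignment, but the share of ENSSSCT00000043460 was alike in all glands, with means of 73.3 to 75.9%. For ERN1, 35.2% of the TPM was on PB.3533.74, which has 4 exons, and 33.7% on the Ensembl transcript of 22 exons, whereas 220 of 287 full-length ERN1 reads were one isoform of 22 exons. PB.3533.74 had 4 of these reads, and how far the gland order of ERN1 depends on this assignment was not tested.

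**Figure D5:**
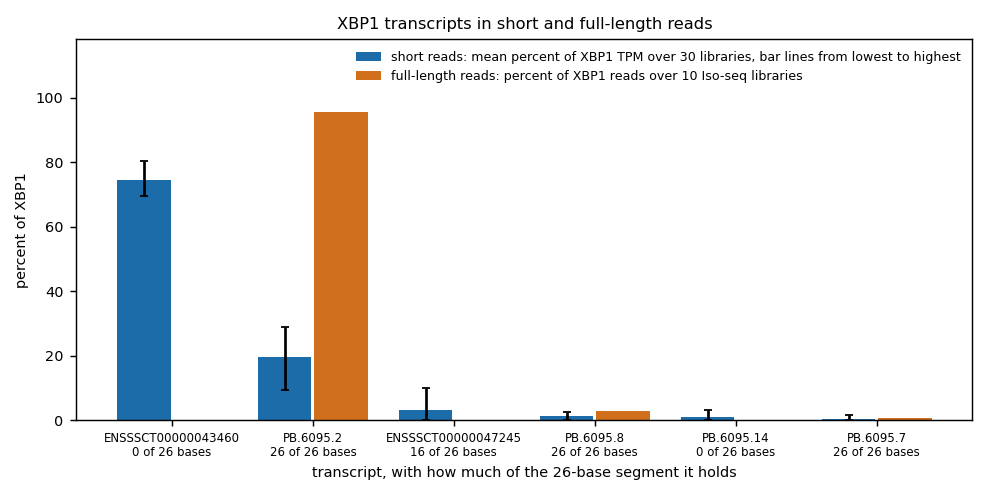
Percent of XBP1 on each transcript in short reads (mean of 30 libraries, lines from lowest to highest) and in full-length reads (10 Iso-seq libraries together), with how many of the 26 bases each transcript holds. The short reads lie mostly on ENSSSCT00000043460 (74.5%) and the full-length reads on PB.6095.2 (95.5%).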

How the data were processed

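RNA-seq and Iso-seq of 5 glands from BMI and DSE boars were used, and the small RNA libraries were not used here. Per the labels rRNA was depleted, while the study's methods name poly-T beads. The authors quantified trimmed reads with Salmon as TPM over 133722 transcripts of Sscrofa11.1 (Ensembl 107 plus Iso-seq isoforms) and deposited full-length read counts per isoform, and the submitters' processing notes list GSNAP, STAR 2.7.10a, Salmon 1.9.0 and Bowtie 1.3.1. The TPM files hold no short-read depth, and depths and RNA integrity values given elsewhere were not used here. Iso-seq libraries held 231413 to 458697 reads. TPM was summed by gene name, and log2(TPM + 1) of all 30 libraries was fitted in limma 3.58.1 (R 4.3.3) with breed and gland group means and Benjamini-Hochberg adjustment, on genes of 1 TPM or more in at least 3 libraries. The slope fit had gland and share. A pair or within-gland breed call needed adjusted p below 0.05 and a log2 difference of 1, other calls adjusted p alone. A fold is 2 to the power of the log2(TPM + 1) difference and understates changes of low genes. Correlations used two-sided exact or 100000-fold permutations (scipy 1.17.1). Alternatives were pseudocount, filter, rescaling outside the 10 highest transcripts, size factors, replicate block, other share measures, smaller fits and leaving out each library. The scripts were tested on simulated data.

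The members and lists were chosen with earlier results of these data known. Named besides the members were the 2 genes per pathway list with the widest gland span, the 3 nearest patterns per member, the top marker per list and list genes with a breed call. MSMB was named after its values were seen. Some genes that this rule selects are not reported here.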

Additional observations from a re-analysis of the deposited data

Results flagged for a closer look

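Of 50 groups of 6 libraries examined, one for each gene and for the share of the 10 highest transcripts in each gland, 6 held a library whose gap to the nearest other, as a share of the whole range, was above Dixon's 95% critical value, and chance gives about 1 in 20 groups. DSE testis replicate 2 was flagged for XBP1 (125 TPM, the next 77.2), PDIA4 (65.2 TPM, the next 41.8) and DNAJB9 (58.1 TPM, the next 107.1), high for the first pair and low for DNAJB9. This library also had the lowest germ cell sum. BMI bulbourethral gland replicate 1 was low for DNAJB9 (21.5 TPM, the next 113). BMI epididymis replicate 1 was high for BHLHA15 (1.05 TPM, the next 0.523), and it also had the highest vesicular gland spermadhesin sum of its gland (4324 TPM, the others at most 983), whose part in this value was not tested. In BMI vesicular gland replicate 2 the 10 highest transcripts held 47.3% of the TPM, the next 59.3%.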

How the results depend on the processing

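Of the 6 counts, those for the glands (8), the gland pairs (56), the breed over all glands (0) and the breed effect between glands (0) stayed within 1.5 times under each planned setting that kept all libraries. The slope count of 5 became 3 with no filter on low values, 1 outside the 10 highest transcripts and 0 with size factors. Size factors turned 5 slopes positive, at 0.19 for XBP1, 0.0093 for CREB3L1, 0.18 for CREB3L4, 0.13 for BHLHA15 and 0.11 for ERN1. They also gave 1 breed call within a gland, ERN1 in the vesicular gland (1.31, adjusted p = 0.031), against 0 as deposited. Why these changed was not tested.

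Leaving out each library in turn gave 8 to 9 genes over the glands, 52 to 58 gland pair calls, 0 breed calls within a gland, 0 to 1 over all glands (BHLHA15 at 0.46, adjusted p = 0.042, without BMI prostate gland replicate 3) and 0 for the difference between glands. The slope count ran from 2 to 7, with 2 without BMI bulbourethral gland replicate 1, 3 without DSE epididymis 1, DSE vesicular gland 1, BMI prostate gland 3 or DSE prostate gland 1, and 7 without DSE testis 2. The pair calls most often lost were CREB3L4 in epididymis against testis and PDIA4 in bulbourethral against prostate gland (7 of 30 each) and XBP1 in prostate gland against epididymis (6 of 30).

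With the replicate number as a block the counts were 9, 56, 0, 0, 0 and 5, the last with CREB3L1 (adjusted p = 0.044) in place of XBP1 (adjusted p = 0.063). The numbers were not shown to pair the libraries, and the check cannot exclude pairing. In 2 of 25 pairs of groups (glands within a breed or breeds within a gland) every same-numbered correlation was over 0.1. The lowest was -0.55, between breeds. Of 75 libraries 33 correlated best with their own number, where chance gives 1 in 3. All 3 DSE epididymis libraries did so with the vesicular gland (mean r 0.33), and 0 of the DSE vesicular gland did with the bulbourethral gland (mean r -0.22). A prior variance that follows the mean level, chosen after seeing the data, gave 8, 56, 0, 0, 0 and 5. The alternatives for a spliced XBP1 share were not run, since no annotated transcript has the 26-base gap. TPM keeps no depth, so no counting error is given for the short reads.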
